A study of Mus musculus with 6 samples.

Results

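The genes of Mediator and of the RNA polymerase II and III machinery were compared between wild-type (WT) and Nipbl+/- mouse embryonic fibroblasts (MEFs). Members were chosen by a rule on gene names that used no values but was set with earlier results of these data known. The names were those of Mediator subunits, RNA polymerase II and III subunits, TBP-associated factors, general transcription factors and SPT factors. Also taken were ELL, elongin and TFIIS proteins, Integrator subunits, pausing factors, P-TEFb cyclins and PAF1 subunits. Of 38483 genes listed, 65 genes of the minus strand carried such a name. A further 65 genes of the plus strand carried one too, but every plus-strand gene was listed at 0 in all 6 cultures, so the factors encoded there were not analysed here. Among those not analysed are Med12 of the Mediator kinase module, the second largest polymerase subunit gene Polr2b, Supt4a of DSIF, Hexim1 and Hexim2, the TFIIS genes Tcea1 to Tcea3, and Paf1, Leo1 and Ctr9, and the NELF names of the rule matched no gene.

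The experiment held 3 WT and 3 Nipbl+/- cultures of MEFs, which are fibroblasts grown from minced embryos. All 6 were of the CD1 strain and of passage 3. The Nipbl+/- cultures, labelled NIPBL-haploinsufficient, carried a heterozygous knockout of Nipbl, and the WT cultures came from littermates. Per the study's methods, all embryos were mid-gestation and shared a mother, and the fibroblasts were grown from bodies without limbs, brain or viscera, so the p-values measure the spread between cultures of such embryos. Total RNA was depleted of rRNA and sequenced, and the comparison asked which transcripts differed when 1 copy of Nipbl was lost.

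Mediator is a large complex that links transcription factors bound at enhancers to RNA polymerase II at promoters. It is built from a head, a middle and a tail around the scaffold subunit MED14, and a kinase module that binds reversibly. NIPBL loads cohesin onto chromatin and is known to occupy enhancers and promoters together with Mediator. After initiation the polymerase is held near the promoter by DSIF and NELF, and P-TEFb, a kinase with a cyclin T subunit, releases it. RNA polymerase III makes tRNAs and 5S rRNA with its own factors, TFIIIC and TFIIIB.

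Total counts per culture lay between 20307454 and 25990783, of which the 2 most counted genes took 12.5% to 15.4%. Replicates were not copies of each other, since chi-square over its degrees of freedom was 9.51 to 32.3 between them. Nipbl was counted at 128, 145 and 135 CPM (counts scaled to library size with TMM normalization) in the WT cultures and at 101, 101 and 100 CPM in the Nipbl+/- cultures. It was lower in every Nipbl+/- culture, by 0.43 on the log2 scale (log2 fold change -0.43, SE 0.06, adjusted p = 0.0213 in edgeR's quasi-likelihood fit, adjusted by Benjamini-Hochberg over all genes), and this call was lost without WT replicate 1 (log2 fold change -0.47), Nipbl+/- replicate 1 (-0.43) or Nipbl+/- replicate 2 (-0.44). The 4 fibroblast markers tested summed to 21469 to 23565 CPM in WT and 22949 to 25445 CPM in Nipbl+/- cultures. Fn1 and Acta2, with log2 fold changes of 0.12 and 0.14, made up most of this sum. Prrx1 (-0.30) and Col6a1 (-0.50) were lower, both at an unadjusted p under 0.05 in the same edgeR fit, and 0 of the 4 passed the threshold. The defining erythroid gene Hbb-b1 was at 0. The 2 endothelial markers summed to 11.3 to 15.4 CPM in WT and 10.0 to 14.7 CPM in Nipbl+/- cultures, and the 3 epithelial markers to 0.363 to 0.534 and 1.03 to 2.53 CPM. Neural markers summed to at most 0.497 CPM and the muscle marker was at most at 0.0928 CPM in any culture. Macrophage and proliferation markers had higher sums in the Nipbl+/- cultures. The 9 macrophage markers summed to 56.0 to 73.4 CPM in WT and 89.7 to 176 CPM in Nipbl+/- cultures, all 9 with a log2 fold change above 0 and 0 of them past the threshold (8 at an unadjusted p under 0.05 in the same edgeR fit). The 14 proliferation markers summed to 1111 to 1206 CPM in WT and 1442 to 1635 CPM in Nipbl+/- cultures, with 7 past the threshold, all higher. WT replicates 1 and 2 and Nipbl+/- replicate 3 had more counts of the Y-linked Ddx3y than of Xist, and the other 3 cultures had the reverse. The part of these differences in the values below was not tested, beyond a fit with the Ddx3y or Xist class as a covariate.

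No member differed between WT and Nipbl+/- cultures at the threshold. Of the 65 members, 63 had enough counts to be tested, and 0 of the 63 were called higher and 0 lower at an adjusted p of 0.05 in edgeR's quasi-likelihood test. Over all 9061 genes tested, 177 were called, or 1.95% (94 higher, 1.04%, and 83 lower, 0.916%), so a set of this size would hold few calls at the rate of the whole table. The lowest adjusted p of a member was 0.193, for the Mediator head subunit gene Med22. At an unadjusted p under 0.05 the same fit held 4 of 63 members (6.35%), all with a log2 fold change above 0: Med22, Polr3g, Supt16 and Ints1. Among all tested genes 16.9% lay under that value, 8.98% with a log2 fold change above 0. With edgeR's exact test, which called 4.77% of all tested genes, and with DESeq2, which called 4.96%, 0 members passed and 1 lay under the unadjusted value in each.

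The differences were small in size, and the data bounded them closely. Log2 fold changes of the 63 members ran from -0.16 (Med29, a Mediator tail subunit) to 0.25 (Taf7, a TFIID subunit), with a median of 0.05 and an SD of 0.09 across members. All tested genes had a median of -0.01 and an SD of 0.32. The 95% confidence interval of the fold change lay within 1.5-fold in either direction for all 63 members, against 68.4% of all tested genes. It lay within 1.2-fold for 41 of the 63 (65.1%), against 33.7% of all tested genes. The interval that reached lowest was that of Polr2a, to -0.44 on the log2 scale, and the one that reached highest was that of Taf7, to 0.55. The members were more highly counted than the average gene, with a median average log2 CPM of 5.79 against 4.47. They also varied less between replicates, with a median biological coefficient of variation of 0.0757 against 0.0937. This was not particular to the members. The 32 partner gene identifiers described below had a median coefficient of 0.0749, and 96.9% of their intervals lay within 1.5-fold and 62.5% within 1.2-fold.

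**Figure D1:**
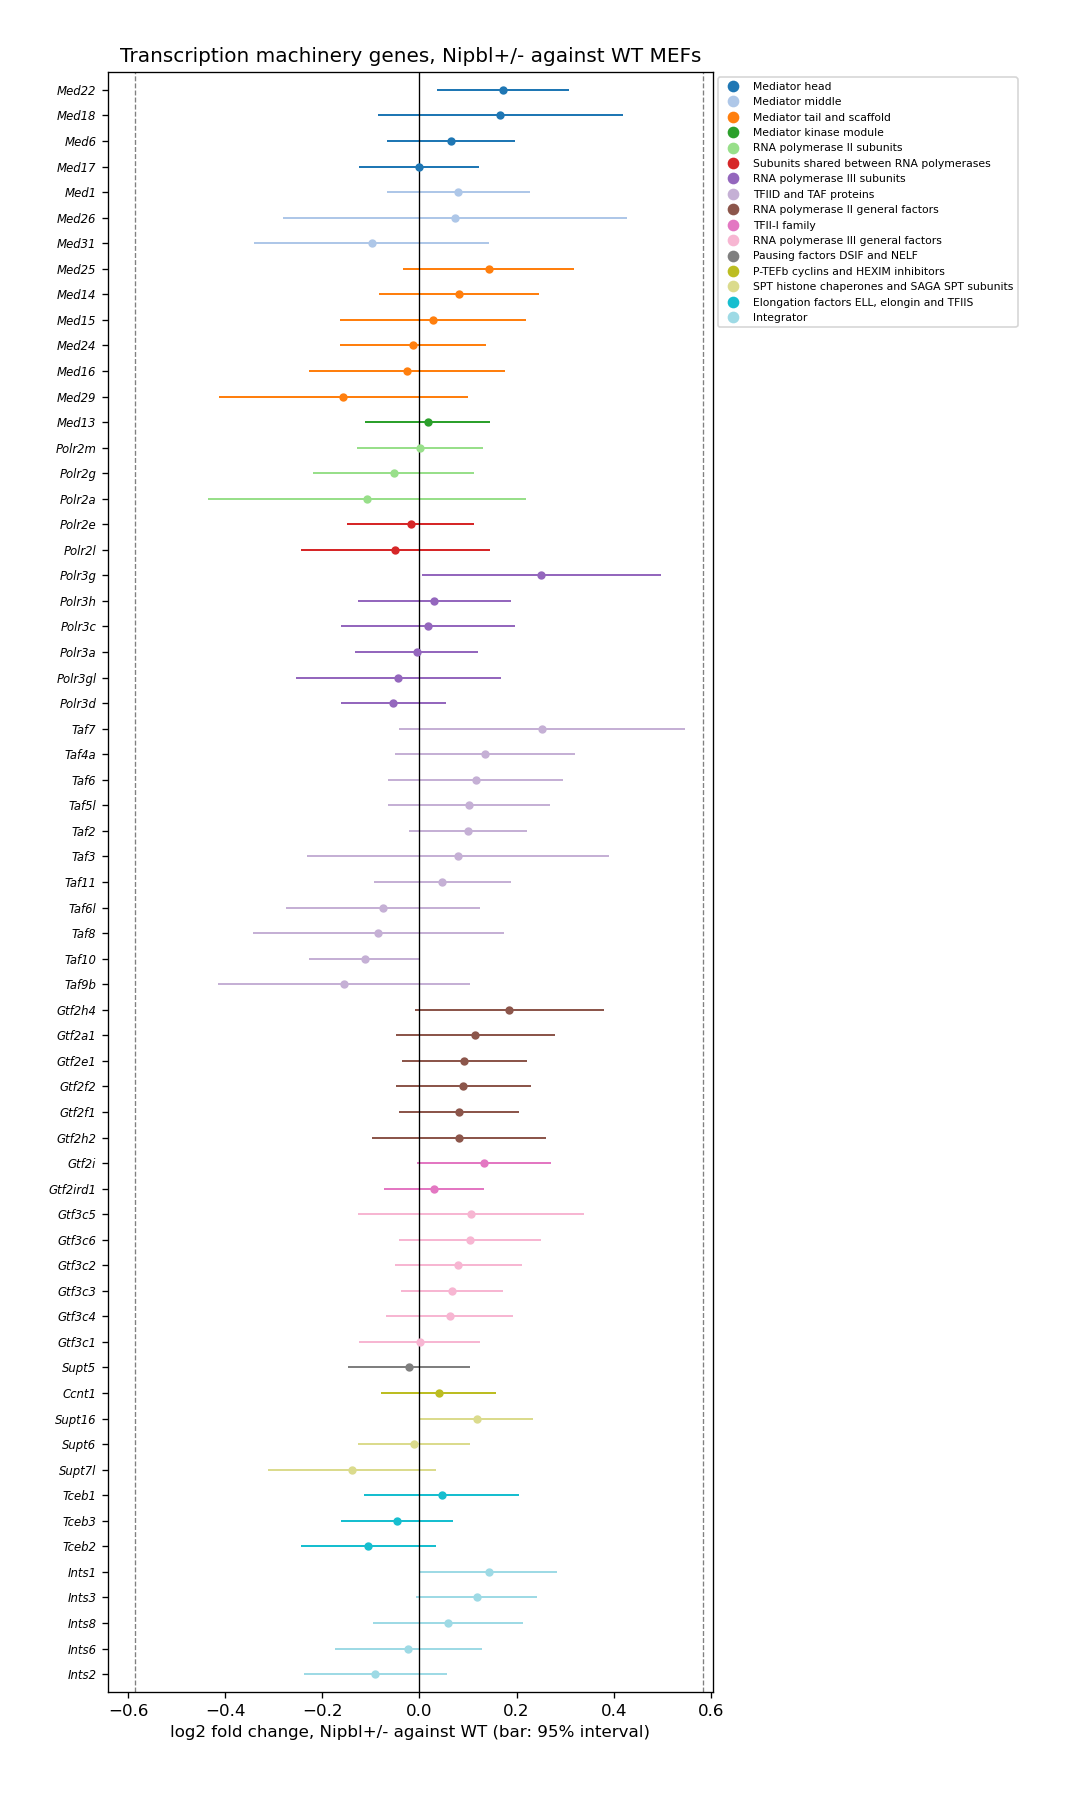
Log2 fold change of Nipbl+/- against WT for each of the 63 tested members (points) with its 95% confidence interval (bars, from edgeR's quasi-likelihood fit of 3 against 3 cultures), coloured by role; the dashed lines mark a 1.5-fold change. Every interval lies between the dashed lines, and those of Med22, Polr3g, Supt16 and Ints1 lie above 0.

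**Figure D2:**
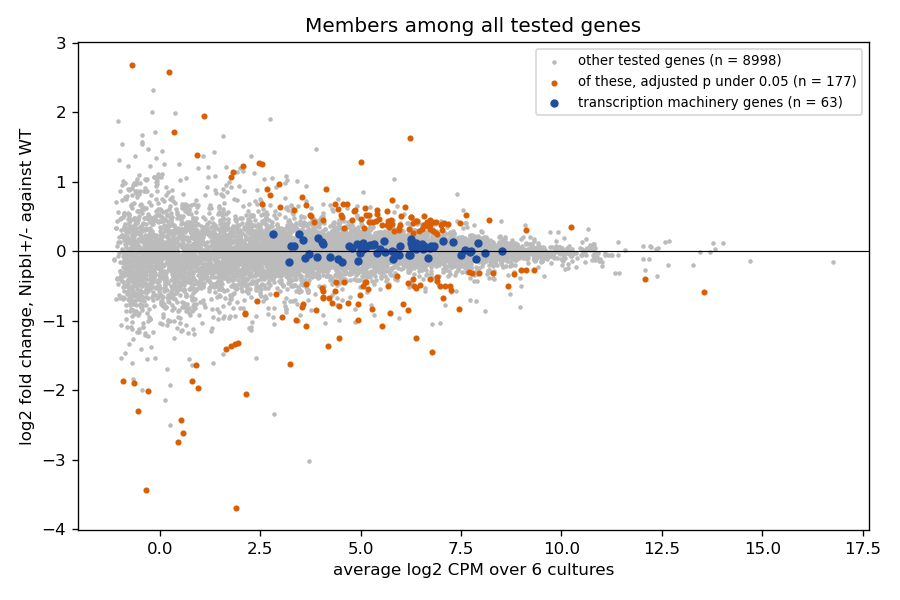
Log2 fold change (vertical axis) against average log2 CPM over 6 cultures (horizontal axis) for the 63 tested members (blue), the 177 genes with an adjusted p under 0.05 (orange) and the other tested genes (grey). The members form a narrow band between -0.16 and 0.25, and none of them is orange.

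More of the members lay above 0 than below it, with 40 of 63 (63.5%) above, compared with 48.4% of all tested genes. The members together took 0.461%, 0.461% and 0.482% of the counts of WT replicates 1, 2 and 3, and 0.477%, 0.491% and 0.502% of those of Nipbl+/- replicates 1, 2 and 3. These shares overlapped between the genotypes, since Nipbl+/- replicate 1 lay below WT replicate 3. After TMM normalization the 63 tested members summed to 4756, 4709 and 4764 CPM in WT and 4762, 4879 and 4860 CPM in Nipbl+/- cultures, which also overlapped. Scaling by library size alone raised the median of all genes to 0.03 and that of the members to 0.08. In that fit 48 of 63 members lay above 0, against 5276 of all 9061 tested genes.

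For 12 of the 63 members (19.0%) the CPM values of the 3 WT and the 3 Nipbl+/- cultures did not overlap. Over all tested genes the share was 22.8%. The Nipbl+/- cultures were the higher ones for 10 members (15.9%, background 12.0%): Taf7, Polr3g, Gtf2h4, Med22, Ints1, Taf4a, Gtf2i, Supt16, Taf2 and Gtf2e1. They were the lower ones for Tceb2, which encodes elongin B, and Taf10, a TFIID and SAGA subunit gene (3.17%, background 10.8%). The share with higher Nipbl+/- cultures was thus above that of the whole table and the share with lower ones below it, a difference that was not tested, and none of the 12 passed the threshold.

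**Figure D3:**
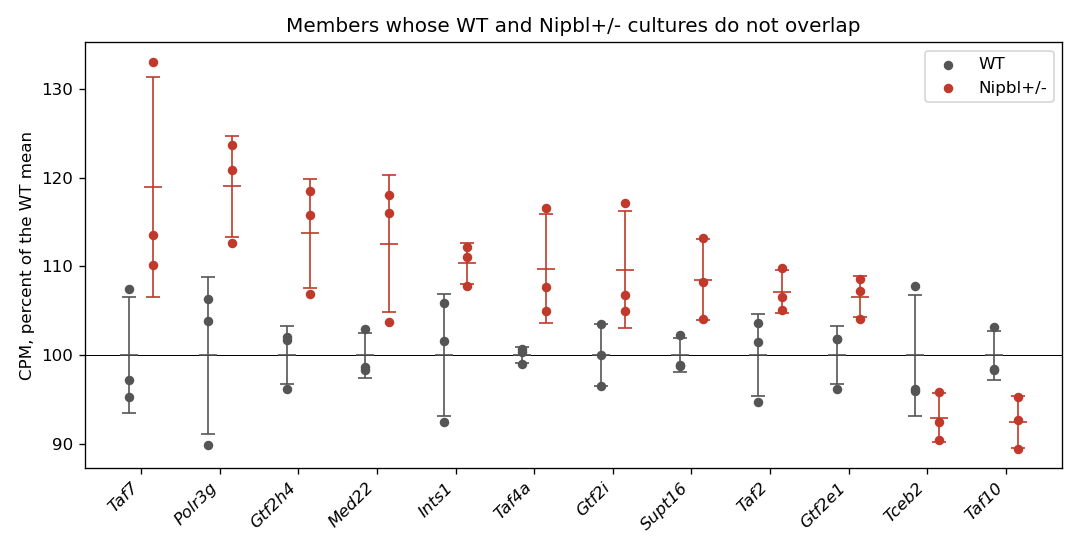
CPM of each culture as a percent of the WT mean for the 12 members whose WT (grey) and Nipbl+/- (red) cultures do not overlap; points are cultures, the wide tick is the mean of 3 and the bars are the SD, and the axis does not start at 0. In 10 genes the Nipbl+/- cultures lie above the WT cultures, and in Tceb2 and Taf10 below them; these genes were picked by this separation, and none passed the threshold.

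Promoter sequence was read for the 4 members with an unadjusted p under 0.05, for Polr3gl as the paralog of Polr3g, and for Tceb2, the member with the highest level per length. Each is the 250 bases before the RefSeq transcription start (GRCm38.p6), written 5′ to 3′ on the strand of the gene, which is the minus strand for all 6. They lie at chr2:26910643-26910892, chr5:139775679-139775928, chr14:52197240-52197489, chr13:81711014-81711263, chr3:96594182-96594431 and chr17:23829110-23829359. Capitals mark a motif, and both strands were searched, so a match may read as the reverse complement. The GC box bound by SP factors was searched as GGGCGG. The CCAAT box, which NF-Y binds, was searched as CCAAT and the TATA box, bound by TBP, was searched as TATAAA. The site of ETS factors was taken as CCGGAAGT. The site of YY1 was taken as AAGATGGC. The site of CREB (the CRE) was taken as TGACGTCA.
Med22: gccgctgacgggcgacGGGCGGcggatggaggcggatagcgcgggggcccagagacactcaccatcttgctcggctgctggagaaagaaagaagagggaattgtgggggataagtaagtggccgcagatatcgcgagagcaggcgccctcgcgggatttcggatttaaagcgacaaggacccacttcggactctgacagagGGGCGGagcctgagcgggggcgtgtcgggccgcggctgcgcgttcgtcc
Ints1: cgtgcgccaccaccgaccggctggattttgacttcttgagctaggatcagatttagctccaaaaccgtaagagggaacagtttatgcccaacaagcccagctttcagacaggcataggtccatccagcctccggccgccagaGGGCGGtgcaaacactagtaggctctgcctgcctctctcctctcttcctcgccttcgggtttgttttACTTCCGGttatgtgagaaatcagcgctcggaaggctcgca
Supt16: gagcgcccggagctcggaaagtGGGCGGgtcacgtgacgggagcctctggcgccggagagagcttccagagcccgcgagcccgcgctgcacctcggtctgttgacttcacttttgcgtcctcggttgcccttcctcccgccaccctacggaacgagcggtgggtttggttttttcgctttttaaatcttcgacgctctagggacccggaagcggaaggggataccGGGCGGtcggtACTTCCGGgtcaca
Polr3g: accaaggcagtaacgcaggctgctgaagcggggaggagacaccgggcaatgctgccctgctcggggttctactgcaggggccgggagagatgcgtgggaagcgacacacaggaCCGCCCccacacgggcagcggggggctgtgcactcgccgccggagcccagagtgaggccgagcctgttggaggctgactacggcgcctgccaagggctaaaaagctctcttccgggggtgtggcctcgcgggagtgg
Polr3gl: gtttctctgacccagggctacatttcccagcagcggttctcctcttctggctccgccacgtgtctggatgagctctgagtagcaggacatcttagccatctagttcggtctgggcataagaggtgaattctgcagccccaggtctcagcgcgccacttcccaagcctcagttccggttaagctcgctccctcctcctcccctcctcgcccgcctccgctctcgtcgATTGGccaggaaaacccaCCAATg
Tceb2: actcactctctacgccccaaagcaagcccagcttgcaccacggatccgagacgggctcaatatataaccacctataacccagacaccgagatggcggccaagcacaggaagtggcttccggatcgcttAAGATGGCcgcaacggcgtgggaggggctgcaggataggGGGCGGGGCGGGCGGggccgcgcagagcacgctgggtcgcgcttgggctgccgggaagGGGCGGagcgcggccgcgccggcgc

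The Med22 and Supt16 windows held 2 GC boxes each, and those of Ints1 and Polr3g held 1. In Tceb2, 4 GC boxes were found, of which neighbouring ones share bases, beside 1 YY1 site. The window of Polr3gl held no GC box and 2 CCAAT boxes, so the promoters of these paralogs had none of the searched motifs in common. An ETS site was present in the windows of Ints1 and Supt16. Of the 65 members, 56 had a RefSeq window. Of these, 36 (64.3%) held a GC box, against 32.7% of all 32851 RefSeq windows of this length and 58.2% of the 5657 windows matched to tested genes. An ETS site was found in 7 member windows (12.5%), those of Ccnt1, Gtf2f1, Gtf2h2, Ints1, Med17, Supt16 and Taf11, against 2.88% of all windows and 5.82% of those of tested genes. A YY1 site was found in 5 (8.93%), those of Gtf2e1, Gtf3c6, Med31, Supt5 and Tceb2, against 1.56% and 1.84%. The CCAAT box was found in 16 member windows (28.6%, against 33.8% and 37.0%) and the TATA box in 5 (8.93%, against 12.4% and 6.88%). The CRE was found in 2 (3.57%, against 1.55% and 2.58%). These counts are of letters in the windows and say nothing of binding.

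Mediator was the best represented complex, with 14 genes listed and all 14 tested. Their summed level was 770, 779 and 793 CPM in the WT cultures and 799, 809 and 816 CPM in the Nipbl+/- cultures. These sums did not overlap, by a narrow margin from 793 to 799 CPM. This was not particular to Mediator. The sums of the RNA polymerase II general factors, the TFII-I family and the SPT factors did not overlap either, with higher Nipbl+/- cultures. Those of the elongation factors did not overlap with lower ones. The sums of the partner genes described below did not overlap either, but with lower Nipbl+/- cultures. Those sums were 1857, 1905 and 1861 CPM in WT and 1843, 1835 and 1845 CPM in Nipbl+/- cultures. They do not describe the partner genes as a set, since Nabp1, the only partner past the threshold, weighed on them. Nabp1 gave 166, 191 and 163 CPM of the WT sums and 132, 116 and 122 CPM of the Nipbl+/- sums. The partner log2 fold changes had a median of 0.03, with 18 of 32 above 0. No single Mediator gene passed the threshold, and the 14 log2 fold changes of Mediator genes had a median of 0.05, with 9 above 0. The proteins of these genes belong to the head (Med6, Med17, Med18, Med22), the middle (Med1, Med26, Med31), the tail and scaffold (Med14, Med15, Med16, Med24, Med25, Med29) and the kinase module (Med13).

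Med22, at chr2:26905262-26910677 (mm10, minus strand), encodes a small head subunit. It was counted at 73.5, 70.5 and 70.2 CPM in WT replicates 1, 2 and 3 and at 74.1, 84.3 and 82.9 CPM in Nipbl+/- replicates 1, 2 and 3. The groups were separated only by the gap between WT replicate 1 and Nipbl+/- replicate 1. The log2 fold change was 0.17 (SE 0.06, 95% confidence interval 0.04 to 0.31), with an adjusted p of 0.193 by edgeR's quasi-likelihood test. Med18, another head subunit gene, had a similar log2 fold change of 0.17 but a wider interval (-0.09 to 0.42) at its lower level of 10.6 to 13.8 CPM. Med17, which encodes the subunit at the core of the head, was at 54.8 to 55.5 CPM in WT and 51.9 to 57.7 CPM in Nipbl+/- cultures, with a log2 fold change of 0.00 and an interval from -0.12 to 0.12. Med6, the head subunit with the highest level per length, had a log2 fold change of 0.06 (SE 0.06).

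In the middle module, Med1, the subunit through which nuclear receptors contact Mediator, was at 104, 106 and 119 CPM in WT and 113, 120 and 115 CPM in Nipbl+/- cultures. The ranges overlapped, and its log2 fold change was 0.08 (SE 0.06). Med26, which joins Mediator to elongation factors, was at 8.23 to 10.2 CPM in WT and 7.93 to 11.4 CPM in Nipbl+/- cultures. Its interval of -0.28 to 0.43 was the widest of the Mediator genes. Med31 had a log2 fold change of -0.10 (SE 0.11), and 26.3% of its exonic bases overlap a gene on the other strand.

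Among the tail and scaffold genes, 3 log2 fold changes lay above 0 and 3 below. Med25 had the highest at 0.14 (SE 0.08), with 43.6 to 47.2 CPM in WT and 44.4 to 53.3 CPM in Nipbl+/- cultures. Med29 had the lowest at -0.16 (SE 0.11), with 25, 27.3 and 21 CPM in WT and 21.8, 20.0 and 24.1 CPM in Nipbl+/- cultures. Both pairs of ranges overlapped. The X-linked scaffold gene Med14 was at 88.3 to 98.2 CPM in WT and 89.8 to 105 CPM in Nipbl+/- cultures, with a log2 fold change of 0.08 (SE 0.07). Med16 had a log2 fold change of -0.03 (SE 0.09). Med13, which tethers the kinase module to the rest of Mediator, was the most counted Mediator gene. Its values were 182, 192 and 200 CPM in WT and 185, 197 and 199 CPM in Nipbl+/- cultures, with a log2 fold change of 0.02 and an interval from -0.11 to 0.15.

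For RNA polymerase II, 3 subunit or associated genes and 2 genes for subunits shared with the other polymerases were measured, and none lay under an unadjusted p of 0.05 in the edgeR fit. Polr2a, at chr11:69733997-69758637, encodes the largest subunit, which carries the C-terminal repeat domain. It was at 17.7, 27.3 and 21.5 CPM in WT and 19.7, 20.4 and 21.7 CPM in Nipbl+/- cultures, so the WT cultures spanned the whole range of the Nipbl+/- cultures. The log2 fold change was -0.11 (SE 0.14, interval -0.44 to 0.22). Polr2g, a subunit of the stalk, had a log2 fold change of -0.05 (SE 0.07). Polr2m, whose protein binds RNA polymerase II and makes it dependent on Mediator, was at 201 to 226 CPM in WT and 210 to 217 CPM in Nipbl+/- cultures. Its log2 fold change was 0.00, with an interval from -0.13 to 0.13. The shared subunit genes Polr2e and Polr2l had log2 fold changes of -0.02 (SE 0.06) and -0.05 (SE 0.09).

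The subunit genes of RNA polymerase II were far apart in level per length. Polr2a was at 2.99 ± 0.64 RPKM in WT (SD, n = 3; reads scaled to gene length and library size, as deposited by the authors), whereas Polr2g was at 84.2 ± 3.46 RPKM and Polr2m at 84.1 ± 6.74 RPKM. In Nipbl+/- cultures the same genes were at 2.86, 83.6 and 86.6 RPKM. In the RPKM as deposited, Polr2g and Polr2m did not differ beyond their spread between cultures, while Polr2a lay far below both in every culture. The comparison of Polr2g with Polr2m rests on the authors' gene lengths, and the spread between cultures does not measure an error in these.

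The RNA polymerase III subunits contained the pair Polr3g and Polr3gl, which encode alternative forms of the same subunit. Polr3g is known for its expression in pluripotent and dividing cells, whereas Polr3gl is the widespread form. Polr3g, at chr13:81673843-81711013, was at 10.3, 10.6 and 8.95 CPM in WT and 11.2, 12 and 12.3 CPM in Nipbl+/- cultures. All 3 Nipbl+/- cultures lay above the WT cultures, the nearest by less than 1 CPM. The log2 fold change was 0.25 (SE 0.11, interval 0.01 to 0.50), with an adjusted p of 0.287 by edgeR's quasi-likelihood test. Polr3gl was at 13.8, 12.4 and 13.4 CPM in WT and 12.2, 13 and 13.2 CPM in Nipbl+/- cultures, overlapping throughout, with a log2 fold change of -0.04 (SE 0.09).

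Within a culture the ratio of Polr3g to Polr3gl counts was 0.748, 0.856 and 0.670 in WT and 0.922, 0.924 and 0.935 in Nipbl+/- cultures. Every Nipbl+/- ratio was above every WT ratio, and the log2 ratio was higher by 0.30 on average. The two-sided exact permutation test gave p = 0.1, the smallest this test can give for 3 against 3 cultures, and 0.3 after Benjamini-Hochberg adjustment over 3 paralog pairs. For Gtf2i over Gtf2ird1 and for Taf6 over Taf6l, the log2 ratios differed by 0.10 and 0.18, each with exact permutation p = 0.3 and an adjusted 0.3. Of the exonic bases of Taf6, 26.5% overlap Ap4m1 on the other strand. Per length, Polr3gl was the higher of its pair at 7.86 ± 0.50 RPKM in WT, against 2.41 ± 0.16 RPKM for Polr3g, and 7.86 against 2.96 RPKM in Nipbl+/- cultures.

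The other RNA polymerase III subunits varied little. Polr3a, the largest subunit and part of the catalytic centre, was at 55.3 to 58.3 CPM in WT and 53.1 to 59.0 CPM in Nipbl+/- cultures, with a log2 fold change of -0.01 (SE 0.06). Polr3d had the lowest log2 fold change of the 6, -0.05 (SE 0.05), and the highest level per length, 27.8 ± 0.34 RPKM in WT. The 6 genes of TFIIIC (Gtf3c1 to Gtf3c6), which bind the internal promoters of tRNA genes, all had log2 fold changes at or above 0, with a median of 0.07, and none lay under an unadjusted p of 0.05. Gtf3c1 was the most counted of all tested members, at 376, 343 and 381 CPM in WT and 355, 369 and 375 CPM in Nipbl+/- cultures. Its log2 fold change was 0.00 (interval -0.13 to 0.13), and it lay below 0 with RLE or upper-quartile scaling and with DESeq2. Gtf3c5, the TFIIIC gene with the lowest level per length, had the highest of the 6, 0.11 (SE 0.10).

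Of 12 genes for TFIID and related TAF proteins, 11 were tested. TFIID recognises core promoters, and some TAFs also serve in SAGA. The log2 fold change lay above 0 for 7 of the 11, with a median of 0.08, and none lay under an unadjusted p of 0.05. Taf7, a subunit in contact with TAF1, had the highest of all members. It was at 6.17, 6.05 and 6.82 CPM in WT and 6.99, 8.44 and 7.21 CPM in Nipbl+/- cultures, which did not overlap by a narrow margin. The log2 fold change was 0.25 (SE 0.13, interval -0.04 to 0.55), with an edgeR adjusted p of 0.368. Taf9b, an X-linked gene and paralog of Taf9, had the lowest of the TAFs at -0.16 (SE 0.11), with 9.09 to 10.2 CPM in WT and 8.25 to 9.59 CPM in Nipbl+/- cultures.

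Taf10 was at 57.1, 57.1 and 59.9 CPM in WT and 53.8, 51.9 and 55.3 CPM in Nipbl+/- cultures. All 3 Nipbl+/- cultures lay below the WT cultures, with a log2 fold change of -0.11 (SE 0.05) and an edgeR adjusted p of 0.303. Of its exonic bases, 45.9% overlap Ilk on the other strand, and whether the counting used strand is not stated. Taf2, which binds the initiator at the start site, was the TAF with the highest level per length, 16.8 ± 0.99 RPKM in WT. It had a log2 fold change of 0.10 (SE 0.05). Taf3, which reads H3K4me3, was the lowest tested TAF at 1.46 ± 0.27 RPKM, with a log2 fold change of 0.08 (SE 0.14). Taf7l, an X-linked paralog of Taf7 known from germ cells and fat cells, had 1 to 7 counts per culture and was not tested.

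All 6 genes of the RNA polymerase II general factors TFIIA, TFIIE, TFIIF and TFIIH had log2 fold changes above 0, between 0.08 and 0.19, with a median of 0.09. None lay under an unadjusted p of 0.05. The 6 stayed above 0 under every alternative tried, including leaving out any 1 culture. The alternatives refit the same cultures, so this is no separate evidence of a rise. Gtf2h4, a TFIIH subunit gene that anchors the helicase XPB, had the highest. It was at 14.5, 14.5 and 13.7 CPM in WT and 15.2, 16.5 and 16.8 CPM in Nipbl+/- cultures, without overlap, with a log2 fold change of 0.19 (SE 0.08) and an edgeR adjusted p of 0.316. Gtf2f1 encodes the large TFIIF subunit, which escorts the polymerase to the promoter, and was the highest per length at 58.4 ± 3.08 RPKM. Its values of 103, 104 and 109 CPM in WT and 106, 111 and 116 CPM in Nipbl+/- cultures overlapped, with a log2 fold change of 0.08 (SE 0.05). Gtf2h2 had a log2 fold change of 0.08 as well (SE 0.08).

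The TFII-I family pair, which encodes DNA-binding factors deleted in Williams syndrome, lies side by side on chromosome 5. Gtf2i was at 154, 144 and 149 CPM in WT and 159, 175 and 156 CPM in Nipbl+/- cultures, which did not overlap. Gtf2i had a log2 fold change of 0.13 (SE 0.06), with an edgeR adjusted p of 0.310. Gtf2ird1 was at 80.3 to 83.2 CPM in WT and 82.1 to 85.4 CPM in Nipbl+/- cultures, with a log2 fold change of 0.03 and the smallest SE of any member (0.04).

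Pausing and its release were represented by few genes. Supt5, at chr7:28314898-28338719, encodes the large DSIF subunit. It was at 278, 259 and 283 CPM in WT and 272, 258 and 279 CPM in Nipbl+/- cultures, and each genotype held both high and low cultures. Supt5 had a log2 fold change of -0.02 (SE 0.05, interval -0.15 to 0.10). Ccnt1, the cyclin T1 gene of P-TEFb, was at 91.1, 94.7 and 91.8 CPM in WT and 92.9, 92.3 and 100.1 CPM in Nipbl+/- cultures, with a log2 fold change of 0.04 (SE 0.05, interval -0.08 to 0.16). For both genes the interval excluded a change of 1.2-fold in either direction.

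Supt16 encodes the large subunit of FACT, the chaperone that moves nucleosomes aside for the polymerase. At chr14:52160419-52197239, it was at 230, 237 and 229 CPM in WT and 242, 251 and 263 CPM in Nipbl+/- cultures. The groups did not overlap, and the log2 fold change was 0.12 (SE 0.05, interval 0.00 to 0.23), with an edgeR adjusted p of 0.288. Of its exonic bases, 21.0% overlap Rpgrip1 on the other strand. Supt6, which encodes a histone chaperone that travels with the elongating polymerase, had a log2 fold change of -0.01 (SE 0.05). Supt7l, a SAGA subunit gene, had a log2 fold change of -0.14 (SE 0.08), with 30.7 to 32.7 CPM in WT and 26.6 to 31.2 CPM in Nipbl+/- cultures.

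In the RPKM as deposited, Tceb2 and Tceb1 were the highest members per length. The rank of Tceb1 rests on the authors' gene length. Its WT mean was 105 CPM and 105 RPKM, while its exons in GENCODE M21 cover 3026 bases. Tceb2 was at 452 ± 25.9 RPKM in WT and 433 RPKM in Nipbl+/- cultures, and Tceb1 (elongin C) at 105 ± 6.95 and 111 RPKM. Elongins B and C also serve as adaptors of ubiquitin ligases such as that of VHL. Tceb2 was counted at 260, 232 and 232 CPM in WT and 232, 223 and 218 CPM in Nipbl+/- cultures, where WT replicate 1 stood above the rest. Tceb2 did not overlap by a very narrow margin, from 231.8 CPM in WT replicate 2 to 231.6 CPM in Nipbl+/- replicate 1. Its log2 fold change was -0.11 (SE 0.06, interval -0.24 to 0.03), with an edgeR adjusted p of 0.424. Tceb1 had a log2 fold change of 0.05 (SE 0.07), and Tceb3, the gene of the transcriptionally active subunit elongin A, had -0.05 (SE 0.05). Ell3 had 0 to 3 counts per culture and was not tested, and 65.6% of its exonic bases overlap Serinc4 on the same strand.

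Integrator cleaves nascent transcripts of snRNA genes and of paused polymerase, and 5 of its genes were measured. Ints1, at chr5:139751282-139775678, encodes the largest subunit. It was at 134, 117 and 128 CPM in WT and 136, 142 and 140 CPM in Nipbl+/- cultures, and WT replicate 1 lay just under the lowest Nipbl+/- culture. Ints1 had a log2 fold change of 0.14 (SE 0.06, interval 0.00 to 0.28), with an edgeR adjusted p of 0.288. Ints2 had the lowest log2 fold change of the complex, -0.09 (SE 0.06), and the lowest level per length, 9.45 ± 0.51 RPKM in WT.

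**Figure D4:**
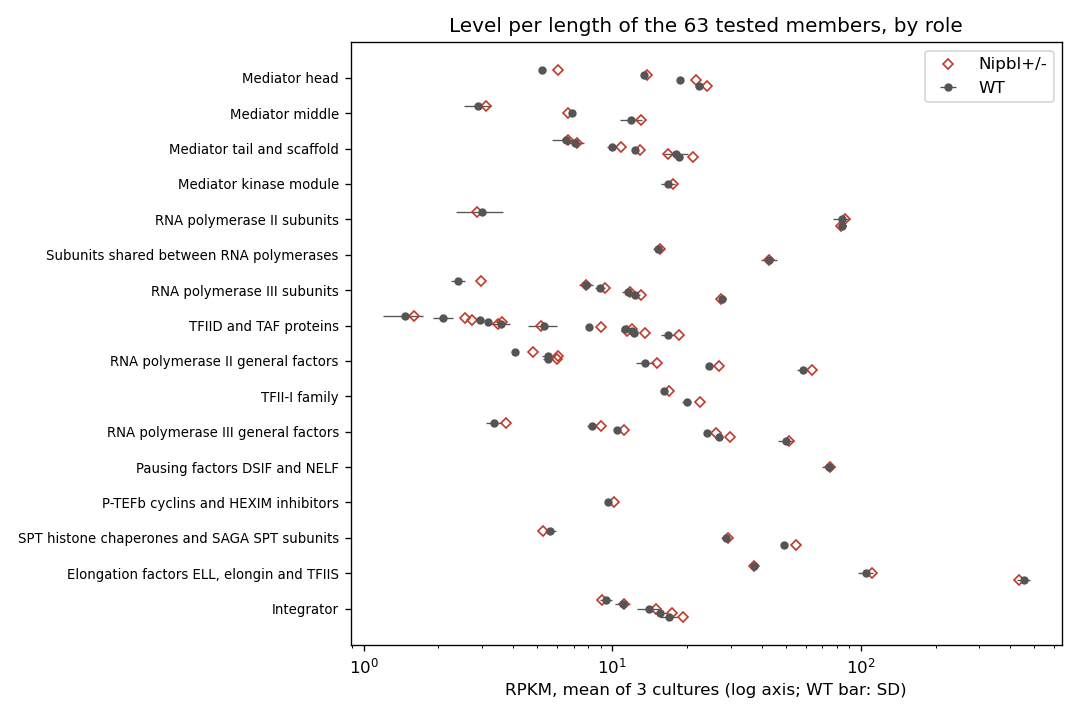
Mean RPKM of 3 WT cultures (filled grey, bar SD) and of 3 Nipbl+/- cultures (open red) for the 63 tested members, grouped by role, on a log axis. Levels span from Taf3 at 1.46 RPKM to Tceb2 at 452 RPKM in WT, and the symbols of both genotypes lie close together for every gene.

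The level per length differed far more between roles, and between genes within a role, than between genotypes. The TFIIIC genes, for example, ran from 3.35 to 50.2 RPKM in WT. In the RPKM as deposited, the highest median of a role in WT was that of the elongation factors, at 105 RPKM. This median is the value of Tceb1 and rests on the authors' length for that gene. In WT cultures the median over tested genes was 16.1 RPKM for the Mediator head, 6.89 RPKM for the middle, 11.2 RPKM for the tail and scaffold, 10.3 RPKM for RNA polymerase III subunits, 5.30 RPKM for TFIID and TAF proteins, 17.3 RPKM for TFIIIC and 14.0 RPKM for Integrator. Supt5, at 74.3 ± 4.67 RPKM, lay above every measured Mediator gene, the highest of which was Med6 at 22.4 ± 0.72 RPKM. In these bulk cultures fewer cells that express a gene and less RNA of it per cell cannot be told apart.

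Partner genes that the name rule does not take, such as kinases, TFIIIB subunits and other SAGA and Integrator subunits, gave 32 tested gene identifiers. Of these, 1 passed the threshold, against 1.95% of all tested genes. Nabp1, which encodes a single-stranded DNA-binding protein that associates with Integrator, was at 166, 191 and 163 CPM in WT and 132, 116 and 122 CPM in Nipbl+/- cultures. All 3 Nipbl+/- cultures lay well below the WT cultures, with a log2 fold change of -0.49 (SE 0.08, edgeR adjusted p = 0.0261). The call was lost without WT replicate 1 (log2 fold change -0.53) and without Nipbl+/- replicate 1 (-0.55), 2 (-0.45) or 3 (-0.49). None of the 5 Integrator genes among the members passed it.

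In the other partner lists, the gene with the lowest p did not pass the threshold. Among elongation partners this was Mllt3, a super elongation complex subunit, with a log2 fold change of -0.26 (edgeR adjusted p = 0.139). Among polymerase assembly and C-terminal domain partners it was the phosphatase gene Ctdp1, with 0.20 (adjusted p = 0.104). Wdr61 of the PAF1 complex had -0.13, the TFIIIB gene Bdp1 had 0.12, Drap1 of the TBP-binding repressor NC2 had -0.10, the SAGA gene Tada3 had 0.09, and Cdk7, the TFIIH kinase, had -0.03. The kinase partners of Mediator were not among the minus-strand genes.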

How the data were processed

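The 6 MEF transcriptomes, 3 WT and 3 Nipbl+/-, were grouped by the genotype label. Per the labels and the methods, reads of rRNA-depleted RNA were mapped by the authors to mm10 (TopHat2 2.0.10, Ensembl annotation), and the authors deposited raw read counts per gene for each culture. The counting tool, its use of strand and its handling of reads that map to several places are not given in the sources used here. The authors also deposited RPKM values, which are counts scaled to gene length and library size, used here only to compare levels between genes. Rankings of genes by level per length rest on the gene lengths the authors used. These lengths were not recomputed here and can differ from the GENCODE M21 exonic lengths, as for Tceb1. Counts were filtered with filterByExpr (minimum count 10), TMM-normalized and fitted over all genes kept by quasi-likelihood in edgeR 4.0.16 (R 4.3.3), with Benjamini-Hochberg adjustment and a threshold of 0.05. The standard error is the absolute log2 fold change over the square root of the F statistic, and 95% intervals use the t quantile of the fit.

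Total counts were 20307454 to 25990783 per culture. How far depth and the number of cultures each set the width of the intervals was not tested. Paralog ratios were tested with exact permutation tests in scipy 1.17.1. Alternatives were RLE, upper-quartile and library-size scaling, no filter, CPM above 1 in 3 cultures, edgeR's exact test, DESeq2 1.42.0, the replicate number as a block, a Ddx3y or Xist class as covariate, and leaving out each culture. Steps were tested on simulated data. Exon overlaps came from GENCODE M21, in which 64 of 65 member identifiers were found (all but Gtf3c2). Promoters came from RefSeq (GRCm38.p6), and 9 members had none.

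The members, roles and partner and marker lists were chosen with earlier results of these data known. Named are Nipbl, members with an unadjusted p under 0.05, in each role those with the highest and lowest level per length and log2 fold change, paralog pairs, members not tested, and in each partner list genes past the threshold or with the lowest p. Members named for non-overlapping cultures, and Med14, Polr2g, Polr3a, Supt6 and Rpgrip1 or other overlapping genes, fall outside this rule and were added after their values were seen. Columns of per-sample values left unused numbered 0.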

Additional observations from a re-analysis of the deposited data

How the results depend on the processing

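Under all 15 alternatives 0 members were called in either direction, and the lowest adjusted p of a member in any of them was 0.144. Of 555 values of 37 named members, 0 passed the threshold and 34, of 11 members, took the other sign, with absolute log2 fold changes of at most 0.11 in both fits. The median of the members moved from 0.045 to 0.084 with library size alone and lay between 0.0248 (without Nipbl+/- replicate 2) and 0.0522 when a culture was left out. Over all genes, 94 were called higher and 83 lower. The higher ones numbered 142 with library size alone, and the higher and lower ones 173 and 152 without a filter, 219 and 213 by the exact test, and 237 and 212 by DESeq2. Leaving out a culture gave 1 to 130 higher and 2 to 138 lower. Nipbl lay between -0.47 and -0.39 in those fits, past the threshold in 3 of 6. Sign changes outside those fits, all in log2 fold change, were Gtf3c1 with RLE (-9.7e-05), upper-quartile scaling (-0.011), CPM above 1 (-0.000845), DESeq2 (-7.2e-05) and the sex-linked class (-0.0054), Polr2m with upper-quartile scaling (-0.010), CPM above 1 (-0.00018) and the class (-0.013), Med17 with the class (0.0041), and, with library size alone, Med17 (0.037), Med16 (0.012), Polr2e (0.021) and Supt5 (0.017). With a culture left out, the genes that changed sign ranged as follows: Gtf3c1 -0.046 to 0.0279, Med13 -0.0204 to 0.0479, Med16 -0.12 to 0.0237, Med17 -0.0368 to 0.0366, Med26 -0.0689 to 0.19, Polr2a -0.25 to 0.0693, Polr2e -0.050 to 0.0127, Polr2l -0.13 to 0.00385, Polr2m -0.0441 to 0.0411, Supt5 -0.0582 to 0.00928, Taf3 -0.0308 to 0.20. The cause was not tested.

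The same replicate numbers did not pair the cultures: deviations from the group means of same-numbered cultures correlated at -0.06, -0.04 and -0.14. With a replicate block, 34 genes were called higher and 52 lower, 0 of them members, and Nabp1 (-0.49) was no longer called (edgeR adjusted p = 0.0628).

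With 3 cultures of each genotype, intervals lay within 1.2-fold for 41 of 63 members and were wider for the rest. Plus-strand genes, more than 1 litter, protein levels and polymerase occupancy were not analysed here.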
